A study of Mus musculus with 12 samples.

Results

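The genes described here encode the vesicle fusion and exocytosis machinery of pancreatic islets: synaptotagmins, synaptotagmin-like proteins, syntaxins, syntaxin-binding proteins, VAMPs, SNAPs, the Unc13, Rims, complexin and Doc2 families, and the NSF and α/β/γ-SNAP recycling factors. Members were taken by a rule on gene symbols among protein-coding rows, with no measured value in the rule, which gave 75 of the 24503 genes in the deposited tables (18224 of them protein-coding). RNA sequencing of whole islets gave 12 libraries, 2 mice for each of 6 groups, with 15196061 to 22892255 counts per library. In wild-type C57BL/6 islets, 1 group was at low glucose (2G), labelled untreated with no concentration or time. The other 3 wild-type groups had 11 mM glucose for 4 h, given alone (11G), together with diazoxide (11G+D) or together with FK506 (11G+FK). Diazoxide opens ATP-sensitive potassium channels and so hyperpolarizes the cells, and FK506 inhibits the phosphatase calcineurin. The other 4 libraries came from C57BL/6 islets with channelrhodopsin-2 (ChR2), a light-gated cation channel, in their β cells, kept dark or under light for 40 min in cycles with 5 min off. The labels give neither a glucose concentration for the ChR2 islets nor the promoter that drives the channel, and any comparison with 2G can also hold the effect of incubation. The libraries asked how glucose, membrane potential and calcineurin alter islet transcripts. The titles give 1 mouse number to every condition of a genotype, so changes were fitted within mouse numbers.

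Vesicle fusion is driven by SNARE proteins. A VAMP on the vesicle pairs with a syntaxin and a SNAP on the target membrane, and the bundle they form pulls the membranes together. Syntaxin-binding proteins hold and template syntaxin, Munc13 proteins (the Unc13 genes) open it and prime the vesicle, RIM proteins tether vesicles near calcium channels, and complexins clamp the partly formed bundle. Synaptotagmins and Doc2 proteins sense Ca2+ through C2 domains, and NSF with α-SNAP takes spent bundles apart. In β cells this machinery releases insulin granules when glucose closes ATP-sensitive potassium channels and Ca2+ enters, while other SNAREs of the same families serve the endoplasmic reticulum, the Golgi and endosomes.

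Whole islets hold several cell types, and in such bulk samples fewer cells of a type and less RNA per cell cannot be told apart. The islet label was borne out by 10 of 10 β-cell markers found, which took 7.41% to 11.9% of the counts of a library, and Ins2 stood at 76987 to 130164 FPKM (fragments per kilobase of gene, scaled to library size). α-cell markers took 0.193% to 1.59%, acinar markers 0.00655% to 0.118%, ductal markers 0.245% to 0.564% and endothelial markers 0.088% to 0.16%. Npas4, an activity-induced transcription factor, stood at 0.397 and 0.533 FPKM at 2G in mice 1 and 2, at 21.9 and 18.9 at 11G, at 0.741 and 0.598 with diazoxide, and at 7.82 and 13.03 with FK506. Its libraries thus separated 11G from 2G and from diazoxide in both mice.

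Most of the exocytosis genes were expressed in islets. Over the 8 wild-type libraries, 32 members had a mean of at least 10 FPKM and 16 had a mean under 1 FPKM. FPKM is a level per length, so it allows levels of different genes to be set side by side. The highest mean was that of Syt13, an atypical synaptotagmin that does not bind Ca2+, at 148 FPKM with a range of 123 to 195 over the libraries. It was followed by Napa, which encodes α-SNAP, at 109.7 FPKM, and by Vamp2, the VAMP of insulin granules, at 102.6 FPKM. The ranges of Napa (90.3 to 127) and Vamp2 (69.3 to 139) overlapped each other and the lower end of the range of Syt13. In the 11G library of mouse 1, Vamp2 (139 FPKM) stood above Syt13 (123 FPKM). Syt13 was nonetheless above Napa in each of the 8 wild-type libraries. The order of Napa and Vamp2 changed with the library: Napa was higher in both 2G libraries and Vamp2 in both 11G libraries.

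Each family had leading members. Among the Ca2+ sensors, Syt13 made up 38.0% to 56.4% of the summed synaptotagmin FPKM in wild-type libraries. Syt4, which in mature mouse β cells is known to lower the Ca2+ sensitivity of secretion, averaged 46.6 FPKM and Syt7, a high-affinity Ca2+ sensor, 46.3 FPKM. Syt5, a Ca2+-binding synaptotagmin of dense-core vesicles, averaged 23.2 FPKM and Syt9, another granule sensor, 4.52 FPKM. Syt1, the main sensor of neuronal synapses, averaged 1.14 FPKM, and Doc2b, a soluble Ca2+ sensor of β cells, 1.21 FPKM with a range of 0.991 to 1.72. Sytl4, which encodes the granule-docking protein granuphilin, was the leading synaptotagmin-like gene at 33.6 FPKM, and Sytl2 was the lowest at 0.549 FPKM.

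Among the SNAREs of the plasma membrane, Stx1a averaged 12.7 FPKM (range 9.70 to 16.03) and Snap25 19.8 FPKM (14.6 to 28.0). Stx5a, a Golgi syntaxin, had the highest syntaxin mean at 53.1 FPKM (36.2 to 70.8), next to the endosomal Stx7 at 52.6 FPKM (45.3 to 63.3). Their order depended on the group. Stx5a averaged 36.5 FPKM at 2G and 48.3 at 11G, below the 54.5 and 55.1 of Stx7. With diazoxide and FK506 it averaged 68.8 and 58.8, above the 46.6 and 54.3 of Stx7. Stx19 was the lowest at 0.164 FPKM. Snap47 led the SNAP symbols at 34.3 FPKM, and Snap91, which despite its symbol encodes a clathrin adaptor rather than a SNARE, was the lowest at 3.42 FPKM. Vamp5 was the lowest VAMP at 3.34 FPKM.

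Among the priming and clamping genes, Unc13a averaged 17.7 FPKM and Unc13b 13.5 FPKM, with overlapping ranges, and Unc13c 0.0059 FPKM. Rims3, a short RIM form, led its family at 16.2 FPKM, Rims2 averaged 5.63 FPKM, and Rims1 only 0.045 FPKM with 2 to 20 counts per wild-type library. Cplx2 averaged 65.7 FPKM and made up 95.8% to 99.3% of the complexin FPKM, while Cplx1 averaged 1.36 FPKM and Cplx4 had 1 count in all 8 libraries. Nsf averaged 14.9 FPKM. In the NSF and α/β/γ-SNAP group, Napb was the lowest at 4.11 FPKM. Stxbp3b (mean 0.072 FPKM) is a near-copy of Stxbp3a, so its few counts are uncertain.

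**Figure D1:**
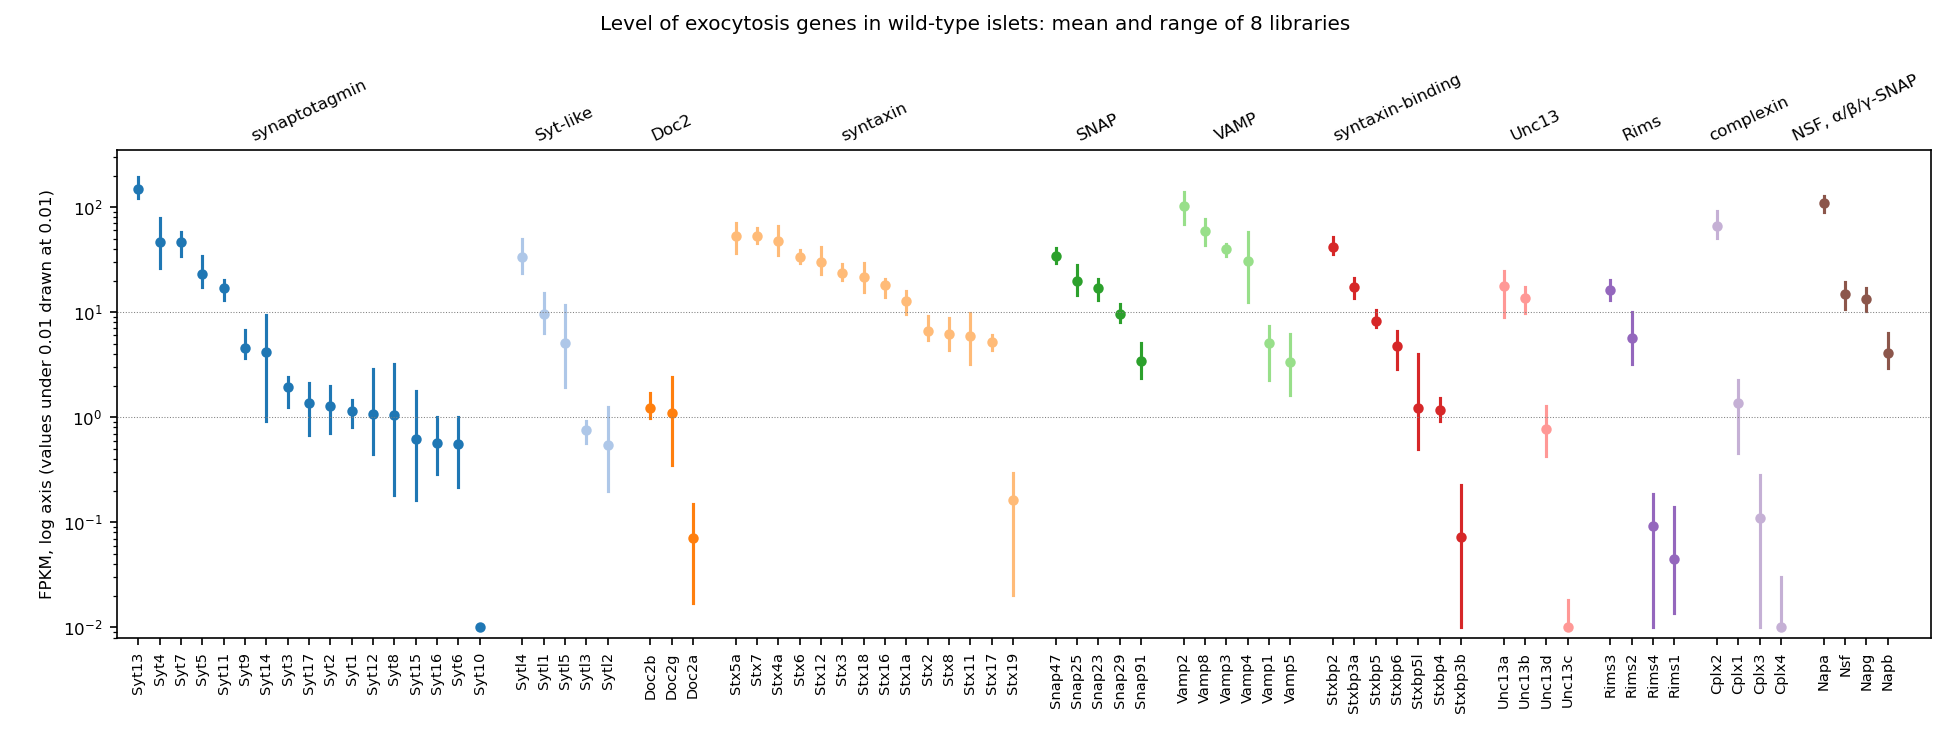
Mean level (points) and range (lines) of the exocytosis genes over the 8 wild-type libraries, in FPKM on a log axis, grouped by family; values under 0.01 are drawn at 0.01. Dotted lines mark 1 and 10 FPKM, and Syt13 has the highest mean, 148 FPKM.

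In mouse order 1 and 2, the summed FPKM of the VAMP family was 219 and 229 in 2G islets, 290.1 and 269.9 in 11G islets, 205 and 194 under diazoxide, and 276 and 248 under FK506. The 11G and 11G+FK libraries were thus higher than those of 2G and diazoxide in both mice. Vamp2 held 43.0% and 34.9% of that sum in 2G islets, 47.9% and 45.6% in 11G islets, 39.3% and 35.7% under diazoxide, and 46.4% and 43.2% under FK506. Vamp4 held 14.2% and 9.48% in 2G islets, 19.9% and 14.6% in 11G islets, 8.67% and 6.50% under diazoxide, and 14.7% and 10.9% under FK506. The FPKM ratio of Unc13a to Unc13b was 1.09 and 0.910 in 2G islets, 1.85 and 1.49 in 11G islets, 1.02 and 1.15 under diazoxide, and 1.60 and 1.21 under FK506. In the ChR2 islets that ratio was 1.39 and 1.32 in the dark and 1.61 and 1.43 under light. These shares and ratios are given as descriptions, without a test.

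**Figure D2:**
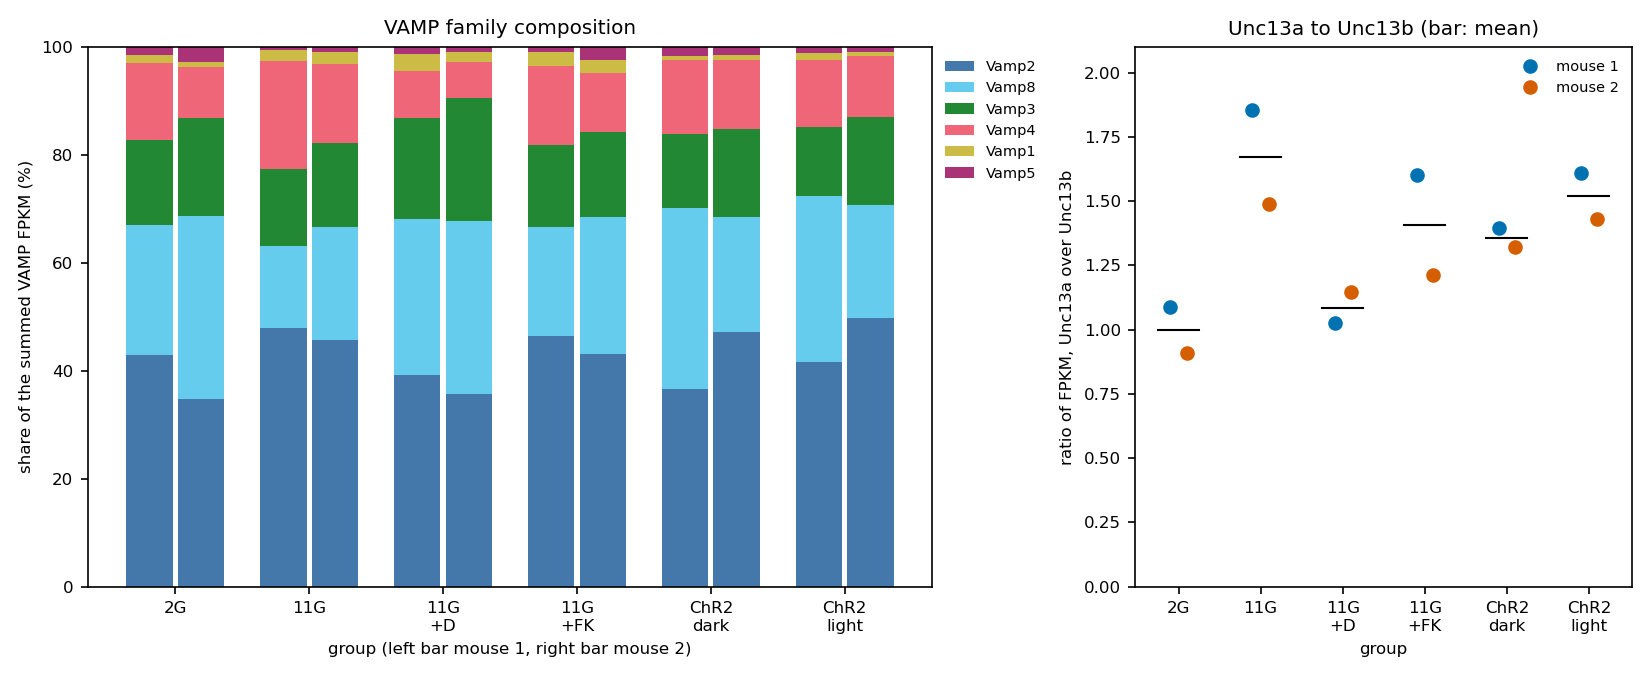
Left, the share of each VAMP gene in the summed VAMP FPKM (%), 1 bar per library; right, the FPKM ratio of Unc13a to Unc13b, points for mice 1 and 2 and bars for their mean. The ratio lies at 0.910 to 1.15 in the 2G and diazoxide libraries and at 1.49 to 1.85 at 11G.

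The promoters of Vamp4, Unc13a, Vamp1 and Stx5a are shown because these 4 genes each passed the test in at least 2 comparisons below and have a start in the promoter table used. The sequences are from RefSeq on GRCm38.p6, from 250 bases before to 50 bases after an annotated start, written 5′ to 3′ in the direction of the gene. Capitals mark matches on either strand to TGACG, the core of the CRE bound by CREB, or to TCGTG, a motif bound by NPAS4. Vamp4 lies on the plus strand and its window is chr1:162570265-162570564. Unc13a lies on the minus strand at chr8:71671708-71672007, Vamp1 on the plus strand at chr6:125215331-125215630 and Stx5a on the plus strand at chr19:8741174-8741473. For Vamp4 and Stx5a the first of 2 annotated starts is shown, and the windows of the second starts held 0 and 2 matches to TGACG.
Vamp4: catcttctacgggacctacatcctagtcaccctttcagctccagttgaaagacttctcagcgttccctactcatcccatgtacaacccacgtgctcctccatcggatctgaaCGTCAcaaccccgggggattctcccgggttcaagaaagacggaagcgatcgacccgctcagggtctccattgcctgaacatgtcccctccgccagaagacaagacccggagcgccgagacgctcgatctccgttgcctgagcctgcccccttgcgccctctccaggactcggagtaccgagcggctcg
Unc13a: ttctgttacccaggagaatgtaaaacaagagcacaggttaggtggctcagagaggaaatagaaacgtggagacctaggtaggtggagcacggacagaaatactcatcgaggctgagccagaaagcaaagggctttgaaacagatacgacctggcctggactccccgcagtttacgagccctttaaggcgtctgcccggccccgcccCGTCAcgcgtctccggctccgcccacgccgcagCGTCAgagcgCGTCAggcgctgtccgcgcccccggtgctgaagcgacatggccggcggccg
Vamp1: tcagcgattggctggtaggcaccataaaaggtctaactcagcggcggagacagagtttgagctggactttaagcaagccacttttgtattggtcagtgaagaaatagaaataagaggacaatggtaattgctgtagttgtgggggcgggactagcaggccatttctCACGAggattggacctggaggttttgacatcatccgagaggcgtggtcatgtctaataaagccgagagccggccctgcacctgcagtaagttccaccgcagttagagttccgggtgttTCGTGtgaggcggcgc
Stx5a: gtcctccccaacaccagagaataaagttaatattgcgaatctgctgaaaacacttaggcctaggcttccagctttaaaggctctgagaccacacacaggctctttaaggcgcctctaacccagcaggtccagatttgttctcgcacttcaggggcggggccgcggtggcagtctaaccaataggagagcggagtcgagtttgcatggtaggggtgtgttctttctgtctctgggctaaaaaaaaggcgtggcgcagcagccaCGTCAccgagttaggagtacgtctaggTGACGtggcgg
Unc13a held 3 matches to TGACG, all on the opposite strand, and 1.03% of the 32851 promoters in the table held at least 3. Vamp4 held 1 such match and Stx5a 2, where 20.8% of all promoters held at least 1 and 5.01% at least 2. Vamp1 held 2 matches to TCGTG, and 1.83% of all promoters held at least 2. A promoter was found for 54 of the 75 members, 65 promoters in all, and 14 of these (21.5%) held TGACG while 8 (12.3%) held TCGTG, beside 16.04% of all promoters for TCGTG. The full palindrome TGACGTCA, in which TGACG matches on both strands, was in 1 member promoter, that of Napa, and in 1.79% of all promoters. The AP-1 motif TGACTCA was in 3 member promoters (4.62%), beside 5.20% of all. The members' shares of these motifs therefore lay near those of all promoters, and a match describes letters only.

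The comparison of 11G with 2G asks which exocytosis transcripts differ between high and low glucose. Of 68 members that passed the filter on low counts, 8 passed the threshold, an adjusted p under 0.05 from the quasi-likelihood test of edgeR, adjusted by Benjamini-Hochberg over all 16087 genes tested. The background was 4.84% of all genes called (3.13% higher, 1.71% lower). At 11G, 6 members rose (Unc13a, Syt4, Vamp1, Vamp4, Syt5 and Vamp2) and 2 fell (Syt8 and Syt12). The genes that rose were thus 3 VAMPs, a priming factor and 2 synaptotagmins. Endocrine markers were on balance higher too: the median log2 change was 0.29 for 10 β-cell markers (2 higher past the threshold, 0 lower), 0.48 for 7 α-cell markers (0 higher, 1 lower) and 0.48 for 6 markers of δ and PP cells (1 higher, Sst). In mice 1 and 2, β-cell markers took 8.46% and 8.37% of the counts at 2G and 11.3% and 8.63% at 11G. α-cell markers took 1.59% and 0.360% at 2G and 1.31% and 0.769% at 11G, so their share was higher in mouse 2 alone. Markers of δ and PP cells took 0.326% and 0.405% at 2G and 0.476% and 0.508% at 11G. The β-cell markers past the threshold were Pdx1 and G6pc2, and G6pc2 also passed as lower with diazoxide and with FK506 against 11G. The part of the endocrine markers in the rises was not tested. The median log2 change of the 68 was -0.09, beside -0.01 over all genes.

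Unc13a (chr8:71624417-71671757 in the deposited coordinates) encodes a Munc13 that primes granules for release. It stood at 12.7 and 8.93 FPKM at 2G in mice 1 and 2 and at 24.8 and 22.0 FPKM at 11G. Both 11G libraries lay above both 2G libraries, and the log2 change was 1.18 ± 0.15 (SE), 2.26-fold, with an edgeR adjusted p of 0.0041. The paralog Unc13b stood at 11.7 and 9.81 FPKM at 2G and 13.4 and 14.8 FPKM at 11G, a log2 change of 0.44 ± 0.16 that did not pass (edgeR adjusted p = 0.132).

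The VAMPs that rose work at different membranes. Vamp4 (chr1:162570515-162599084), a SNARE of the trans-Golgi network that is sorted away from maturing granules, stood at 31.2 and 21.8 FPKM at 2G and at 57.7 and 39.5 FPKM at 11G. The groups did not overlap, and the log2 change was 0.92 ± 0.14, 1.89-fold (edgeR adjusted p = 0.0073). Vamp1 (chr6:125215551-125244543), a close relative of Vamp2 best known from neurons, stood at 3.496 and 2.26 FPKM at 2G and at 5.93 and 5.67 FPKM at 11G, a log2 change of 1.09 ± 0.18 (edgeR adjusted p = 0.0125). Vamp2 (chr11:69088490-69092384) stood at 94.2 and 79.98 FPKM at 2G and at 139 and 123 FPKM at 11G, a log2 change of 0.64 ± 0.14, 1.56-fold (edgeR adjusted p = 0.0339). In each of these genes both mice moved upward and the groups did not overlap. Vamp2 lost its call whichever 2G or 11G library was left out, with log2 changes of 0.59 to 0.68. Vamp3 and Vamp8, endosomal VAMPs that also serve granule fusion, had log2 changes of 0.20 ± 0.16 and -0.32 ± 0.16 and did not pass.

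Among the synaptotagmins, Syt4 stood at 39.9 and 26.6 FPKM at 2G and at 79.2 and 60.7 FPKM at 11G, a log2 change of 1.14 ± 0.21, 2.20-fold (edgeR adjusted p = 0.0167). Syt5 (chr7:4539768-4546567) stood at 22.0 and 19 FPKM at 2G and at 34.4 and 33.1 FPKM at 11G, a log2 change of 0.77 ± 0.16 (edgeR adjusted p = 0.028). Neither gene's groups overlapped. The high-affinity sensor Syt7, at 58.0 and 34.6 FPKM at 2G and 53.0 and 51.2 FPKM at 11G, had a log2 change of 0.25 ± 0.18, and Syt13 one of -0.29 ± 0.19. Neither passed, and their 2 mice did not move alike.

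The 2 members that fell were of low abundance. Syt8 (chr7:142434850-142440396) had 39 and 110 counts at 2G and 6 and 8 counts at 11G, which is 1.35 and 3.20 FPKM against 0.182 and 0.286 FPKM. Its log2 change was -3.26 ± 0.75 (edgeR adjusted p = 0.0393), and -2.08 without the 2G library of mouse 2. Syt12 (chr19:4445908-4477447), an atypical synaptotagmin, had 83 and 238 counts at 2G and 35 and 65 at 11G, a log2 change of -1.47 ± 0.35 (edgeR adjusted p = 0.0435). For both genes the 2G library of mouse 2 was the highest of the wild-type libraries. Acinar markers were lower at 11G too (15 of 19 found, 12 of 14 tested lower at 11G). In mice 1 and 2 they took 0.065% and 0.118% of the counts at 2G and 0.00849% and 0.0524% at 11G. They took 0.0205% and 0.0408% with diazoxide and 0.0101% and 0.0488% with FK506. Syt8 had 30 and 5 counts with diazoxide and 33 and 24 with FK506. Syt12 had 47 and 44 counts with diazoxide and 29 and 67 with FK506. Ductal markers (12 of 12 found, 3 lower) took 0.286% and 0.564% at 2G and 0.291% and 0.314% at 11G, so their share was lower in mouse 2 alone. No acinar or ductal marker found was at 0 in all libraries, and the part of these markers in the falls of Syt8 and Syt12 was not tested.

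Other core genes of granule fusion, beside Vamp2, Unc13a, Syt4 and Syt5, did not pass in this comparison. Snap25 stood at 28.0 and 14.6 FPKM at 2G and at 20.0 and 18.6 FPKM at 11G, a log2 change of -0.05 ± 0.20. Stx1a had a log2 change of 0.37 ± 0.19, Cplx2 of -0.37 ± 0.17 and Nsf of 0.03 ± 0.17. Rims2, Rims3, Doc2b, Sytl4 and Napa had log2 changes between -0.12 and 0.15. These averages hide opposite moves in Rims2, Rims3 and Sytl4, which fell in mouse 1 and rose in mouse 2. Rims2 stood at 10.2 and 3.21 FPKM at 2G and at 5.93 and 4.75 FPKM at 11G. Stxbp5l, which encodes a tomosyn, an inhibitory SNARE protein, had a log2 change of -0.76 ± 0.46. Closest to the threshold on the other side was Stx8, a late endosomal syntaxin, at -0.63 ± 0.16 (edgeR adjusted p = 0.0511).

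The number of members past the threshold, and which members these were, depended on single libraries and on the pairing. It was 9 without the 2G library of mouse 1, 2 (Vamp4 and Unc13a) without the 2G library of mouse 2, 0 without the 11G library of mouse 1 and 1 (Unc13a) without the 11G library of mouse 2. Without the mouse block, 0 members passed in edgeR in any of the 7 comparisons, with 15 at an unadjusted p under 0.05 in 11G against 2G, and DESeq2 with the block called 11 there.

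**Figure D3:**
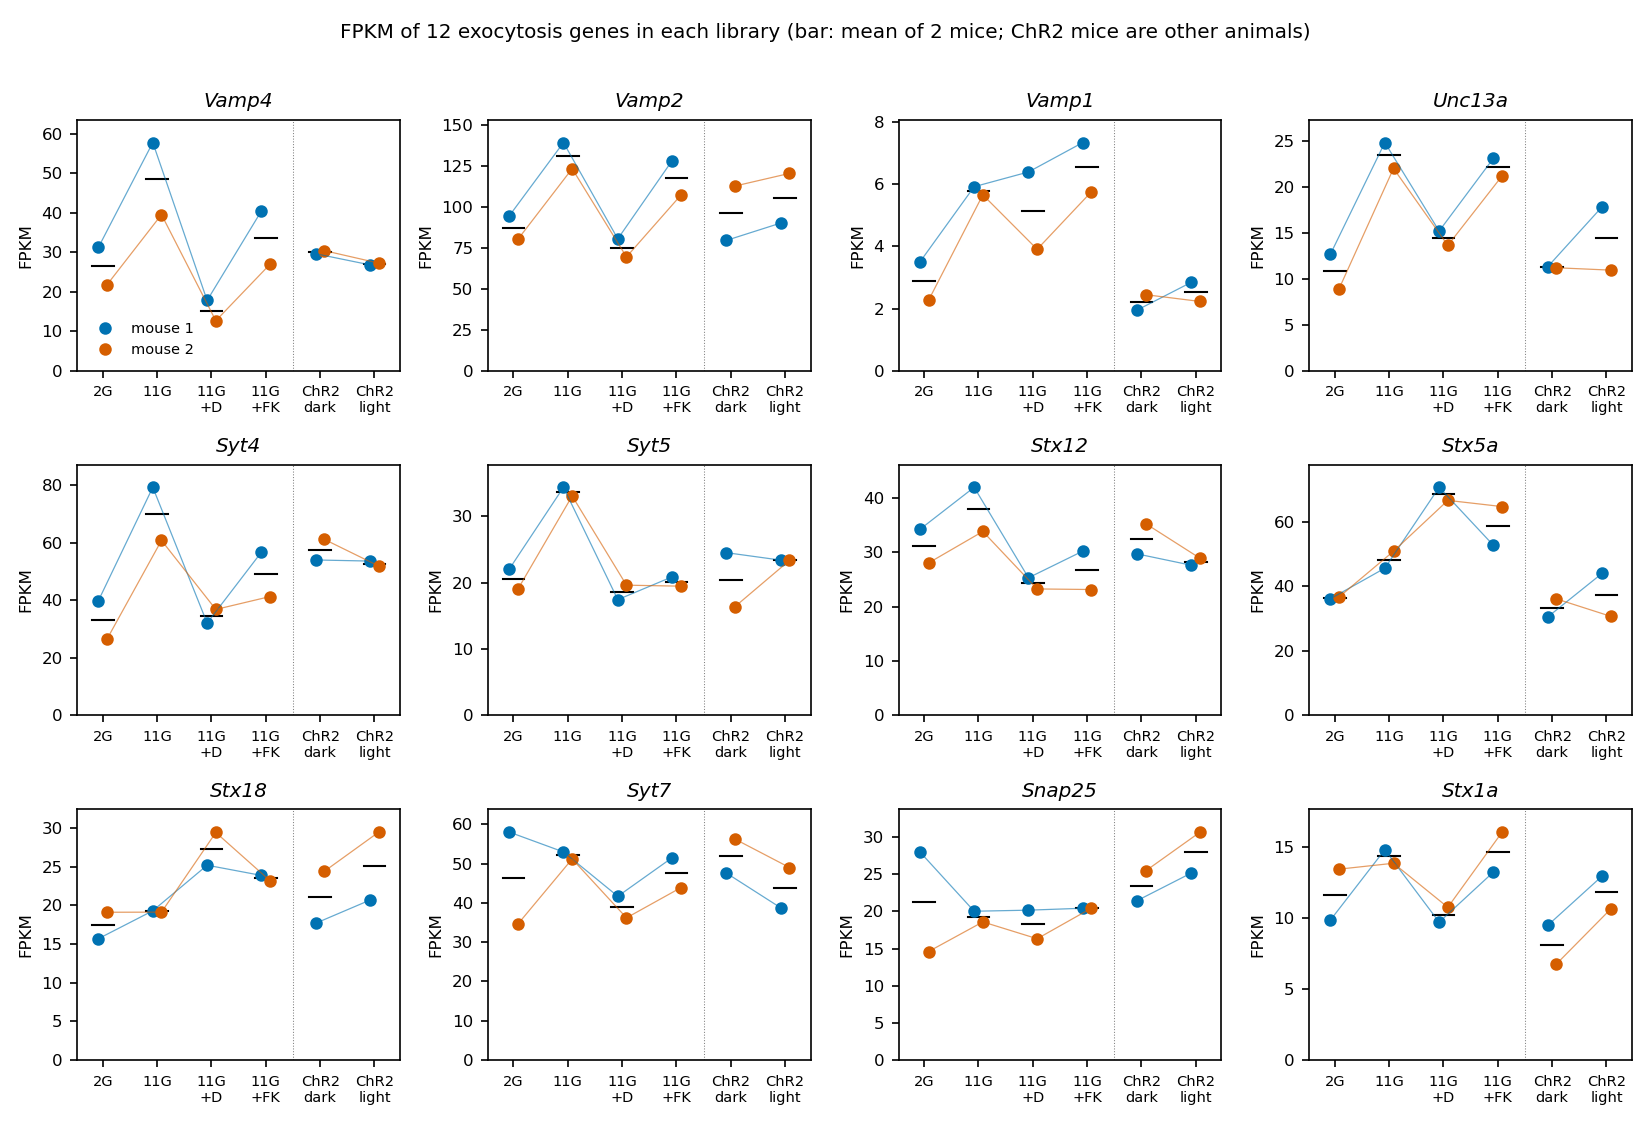
FPKM of 12 exocytosis genes in each library, with points for mouse 1 and mouse 2, lines joining the libraries of 1 mouse and bars for the mean; ChR2 mice are other animals. Vamp4 rises from 31.2 and 21.8 FPKM at 2G to 57.7 and 39.5 at 11G and stands at 17.7 and 12.6 with diazoxide, whereas Snap25 shows no such steps.

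Diazoxide was added at the same glucose concentration to hold the membrane potential down. Against 11G, 6 of the 68 members passed and all 6 were lower with diazoxide (Vamp4, Syt4, Syt5, Vamp2, Unc13a and Stx12), where the background was 3.79% of all genes called (1.33% higher, 2.46% lower). The median log2 change of the members was -0.01, beside 0.00 over all genes. The median log2 change of the endocrine markers was 0.12 for β cells, -0.09 for α cells and -0.21 for δ and PP cells, and their part in the falls was not tested. This comparison uses the same 11G libraries as the one with 2G, so opposite signs in the 2 comparisons are not independent, and each gene is given by its own values.

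Vamp4 had the largest of these changes. It stood at 57.7 and 39.5 FPKM at 11G and at 17.7 and 12.6 FPKM with diazoxide, with no overlap. The log2 change was -1.70 ± 0.14, 3.24-fold lower (edgeR adjusted p = 0.000519), and it passed in each of the 4 fits that left out 1 library. Vamp2 stood at 139 and 123 FPKM at 11G and at 80.3 and 69.3 FPKM with diazoxide, a log2 change of -0.83 ± 0.14 (edgeR adjusted p = 0.0138). Vamp1 stood at 5.93 and 5.67 FPKM at 11G and at 6.40 and 3.91 FPKM with diazoxide, a log2 change of -0.23 ± 0.18 that did not pass.

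Syt5 stood at 34.4 and 33.1 FPKM at 11G and at 17.4 and 19.6 FPKM with diazoxide, a log2 change of -0.88 ± 0.16 (edgeR adjusted p = 0.0174). Syt4 stood at 79.2 and 60.7 FPKM at 11G and at 32.0 and 36.8 FPKM with diazoxide, a log2 change of -1.01 ± 0.21 (edgeR adjusted p = 0.0288), which was -0.64 without the 11G+D library of mouse 1. Unc13a stood at 24.8 and 22.0 FPKM at 11G and at 15.2 and 13.6 FPKM with diazoxide, a log2 change of -0.72 ± 0.15 (edgeR adjusted p = 0.0323). Stx12 (chr4:132853501-132884509), an endosomal syntaxin, stood at 41.9 and 33.8 FPKM at 11G and at 25.3 and 23.2 FPKM with diazoxide, a log2 change of -0.65 ± 0.15 (edgeR adjusted p = 0.042). In all of these the diazoxide libraries lay below both 11G libraries.

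Among the other core genes named, Stx1a had a log2 change of -0.52 ± 0.19 and Syt7 of -0.44 ± 0.18. Snap25 had one of -0.11 ± 0.20, Unc13b of -0.10 ± 0.16 and Syt13 of 0.18 ± 0.19, and none of these passed. Leaving out 1 library gave 1 member (Vamp4) without either 11G library or without the 11G+D library of mouse 1, and 7 members without the 11G+D library of mouse 2.

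FK506 was added to block calcineurin at the same glucose. Against 11G, 0 of the 68 members passed in edgeR, where 0.23% of all genes were called (0.0124% higher, 0.218% lower). At an unadjusted p under 0.05 there were 14 members, and DESeq2 called 3 (Syt5, Syt14 and Vamp4), all lower with FK506. Syt5 stood at 20.9 and 19.5 FPKM with FK506 against 34.4 and 33.1 FPKM at 11G, a log2 change of -0.81 ± 0.16 (edgeR adjusted p = 0.0985). Its FK506 libraries lay below both 11G libraries, near the 22.0 and 19 FPKM of 2G. Vamp4 stood at 40.4 and 26.9 FPKM, a log2 change of -0.60 ± 0.14 (edgeR adjusted p = 0.157), with mouse 1 above the 11G library of mouse 2. Syt4 had a log2 change of -0.58 ± 0.20 and Stx12 of -0.57 ± 0.15. Unc13a, at 23.1 and 21.2 FPKM, had one of -0.14 ± 0.15 and Vamp2, at 128 and 107 FPKM, one of -0.23 ± 0.14. A p that misses the threshold does not show that FK506 left these genes alone. Endocrine markers had median log2 changes with FK506 of -0.14 for β cells, -0.45 for α cells and -0.03 for δ and PP cells. The 7 α-cell markers were all lower in both mice, as were 7 of the 10 β-cell markers. The part of these markers in the lower values was not tested.

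The 2 drugs were also set against each other. With FK506 against diazoxide, 1 of 68 members passed, Vamp4, beside 1.17% of all genes (0.783% higher, 0.385% lower). It was higher with FK506 by a log2 change of 1.099 ± 0.14, 2.14-fold (edgeR adjusted p = 0.00957), and both FK506 libraries lay above both diazoxide libraries. Vamp2 and Unc13a had log2 changes of 0.61 ± 0.14 and 0.58 ± 0.15 in the same direction and did not pass (edgeR adjusted p = 0.0811 and 0.106). The difference between the drugs for Syt5 was 0.08 ± 0.16. Vamp4 did not pass without either FK506 library (0 members called), and 2 members, Vamp4 and Vamp5, passed without the 11G+D library of mouse 1.

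The drug groups were compared with 2G to ask which members stayed different from low glucose. With diazoxide, 5 of 68 members passed, 3 higher and 2 lower, beside 5.22% of all genes (2.92% higher, 2.31% lower). The higher genes were Stx5a, Vamp1 and Stx18, and the lower ones Vamp4 and Stx8. Stx5a (chr19:8741413-8756069), a SNARE of traffic from the endoplasmic reticulum to the Golgi, stood at 36.2 and 36.8 FPKM at 2G, at 45.7 and 50.9 at 11G, at 70.8 and 66.7 with diazoxide and at 52.8 and 64.8 with FK506. Its diazoxide libraries were the highest of the wild-type libraries. The log2 change with diazoxide was 0.94 ± 0.14, 1.92-fold (edgeR adjusted p = 0.0107), and it passed in all 4 fits that left out 1 library. Stx18 (chr5:38038742-38137765), a syntaxin of the endoplasmic reticulum, stood at 15.7 and 19.1 FPKM at 2G and at 25.2 and 29.4 FPKM with diazoxide, a log2 change of 0.68 ± 0.16 (edgeR adjusted p = 0.0424).

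Vamp1 stood at 3.496 and 2.26 FPKM at 2G and at 6.40 and 3.91 FPKM with diazoxide, a log2 change of 0.86 ± 0.18 (edgeR adjusted p = 0.0315). Vamp4 stood below 2G, at 17.7 and 12.6 FPKM against 31.2 and 21.8 FPKM, a log2 change of -0.77 ± 0.14 (edgeR adjusted p = 0.0184). Stx8 (chr11:67966193-68207148) stood at 7.44 and 8.73 FPKM at 2G and at 4.95 and 5.02 FPKM with diazoxide, a log2 change of -0.66 ± 0.16 (edgeR adjusted p = 0.0424). Unc13a, Syt4, Syt5 and Vamp2 had log2 changes against 2G of 0.46, 0.13, -0.11 and -0.19 with diazoxide, and none passed. Which members passed changed with the library left out. Stx8 and Stx18 were not among them without the 2G library of mouse 1, nor was Vamp1 without the 11G+D library of mouse 1. The count of members was 6 without the 2G library of mouse 1, 2 without that of mouse 2 (Stx5a and Stxbp5l), 8 without the 11G+D library of mouse 1 and 3 without that of mouse 2.

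With FK506 against 2G, 4 of 68 members passed, 3 higher (Unc13a, Vamp1 and Stx5a) and 1 lower (Syt14), beside 2.06% of all genes (1.47% higher, 0.591% lower). Unc13a was higher by a log2 change of 1.04 ± 0.15 (edgeR adjusted p = 0.0182) and Vamp1, at 7.35 and 5.77 FPKM, by 1.19 ± 0.18 (edgeR adjusted p = 0.0198). Stx5a was higher by 0.67 ± 0.14 (edgeR adjusted p = 0.0482). Syt14 (chr1:192897307-193035698), an atypical synaptotagmin, stood at 9.50 and 2.75 FPKM at 2G and at 3.05 and 0.917 FPKM with FK506. Its groups overlapped because mouse 1 was higher than mouse 2 in every condition, and its log2 change within mice was -1.59 ± 0.35 (edgeR adjusted p = 0.0498). The counts were 2 (Vamp1 and Unc13a) without the 2G library of mouse 1, 3 without that of mouse 2, and 0 without either FK506 library. With another scaling of the libraries (RLE size factors), 2 members passed and Stx5a and Syt14 did not.

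**Figure D4:**
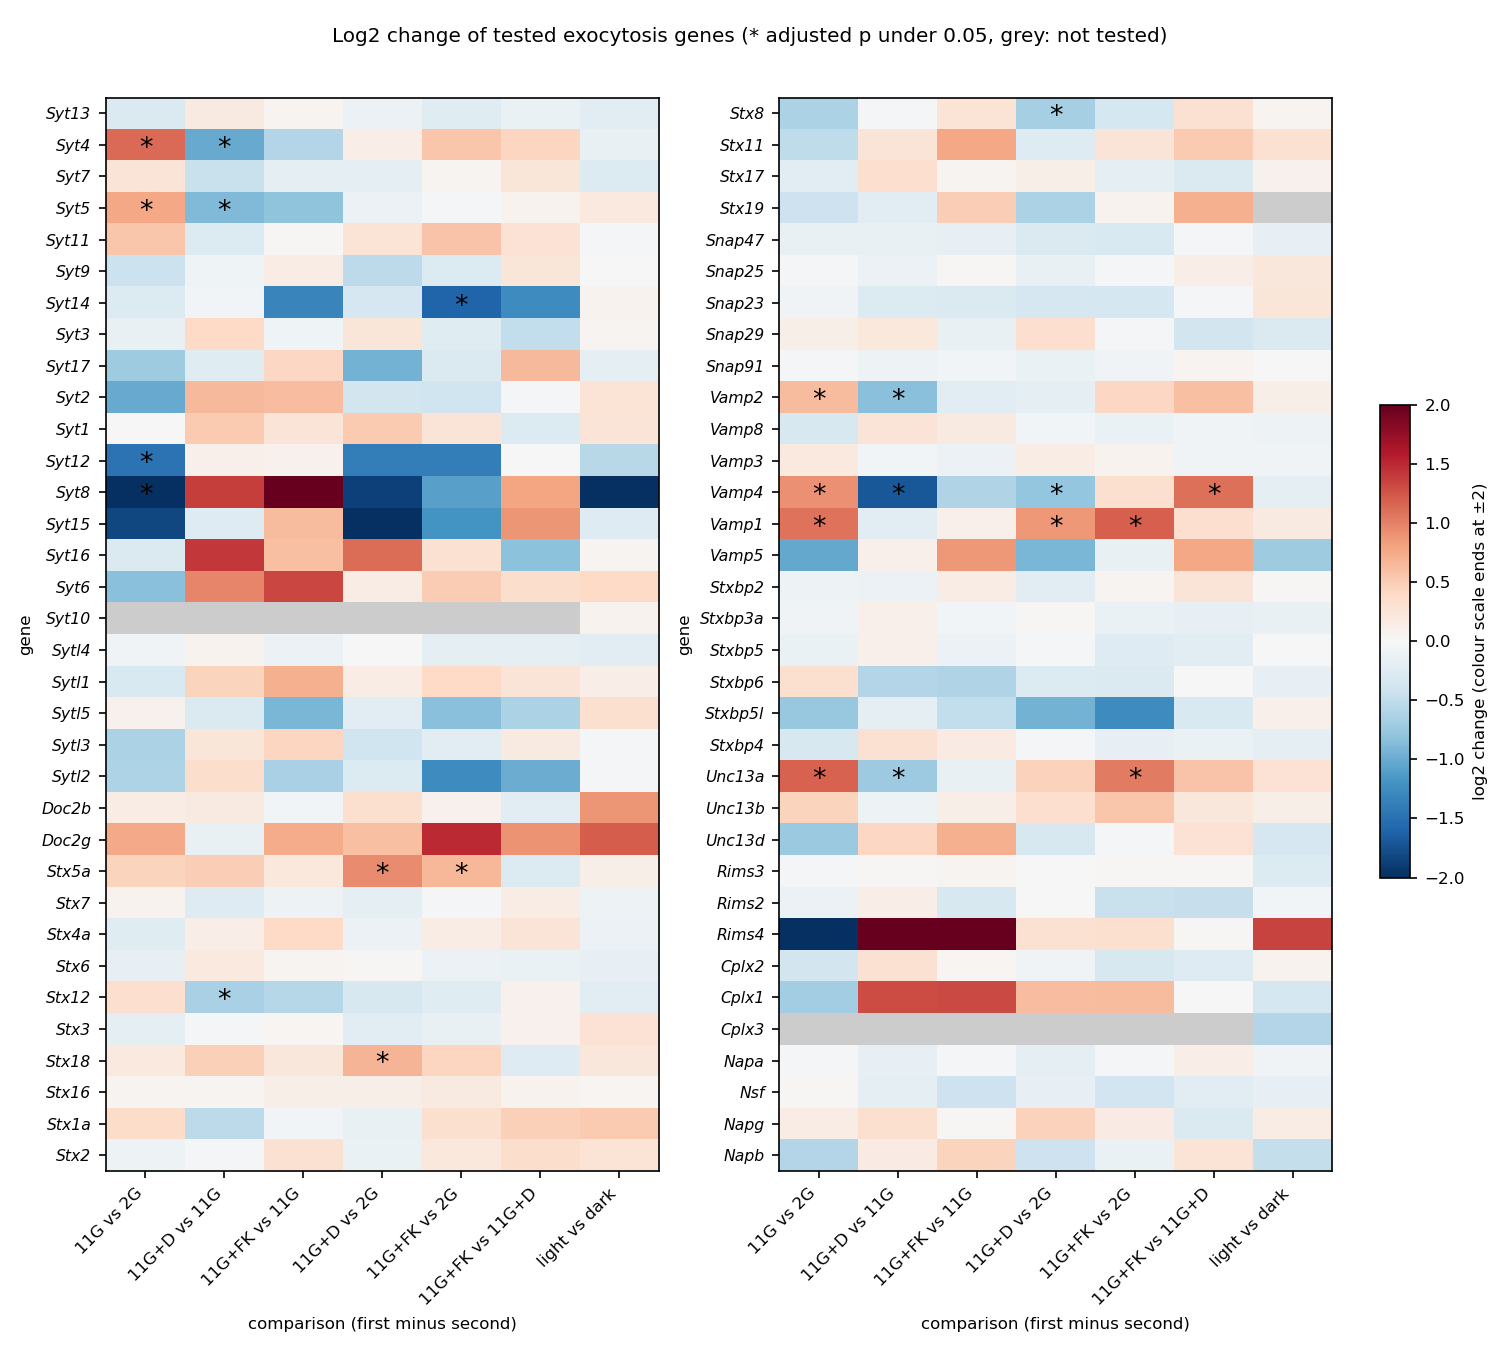
Log2 change of the exocytosis genes tested (rows, by family) in the 7 comparisons (columns, first group minus second); red is higher and blue lower in the first group, the colour scale ends at 2 in either direction, stars mark an edgeR adjusted p under 0.05 and grey marks genes not tested. Vamp4 carries 4 stars, the strongest a log2 change of -1.70 with diazoxide against 11G, and the light column has none.

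Light against dark in ChR2 islets asked what light-driven activity of β cells does to the same genes. The activity-induced Npas4 stood at 0.623 and 0.514 FPKM in the dark and at 5.17 and 1.96 FPKM under light, higher in both mice. Of 69 members tested in these 4 libraries, 0 passed in edgeR and 0 in DESeq2, beside 0.844% of the 15171 genes (0.6% higher, 0.244% lower), and 5 had an unadjusted p under 0.05. In mice 1 and 2, Vamp4 stood at 29.6 and 30.3 FPKM in the dark and at 26.7 and 27.2 FPKM under light, and Syt4 at 53.9 and 61.1 FPKM in the dark and 53.6 and 51.8 FPKM under light. Unc13a stood at 11.3 and 11.2 FPKM in the dark and at 17.8 and 10.9 FPKM under light, so only mouse 1 was higher, and the log2 change was 0.28 ± 0.17. Doc2b stood at 0.649 and 0.556 FPKM in the dark and at 1.12 and 1.15 FPKM under light, higher in both mice, with a log2 change of 0.88 ± 0.36 (edgeR adjusted p = 0.347). Stx1a stood at 9.47 and 6.76 FPKM in the dark and at 12.9 and 10.6 FPKM under light, a log2 change of 0.52 ± 0.21 (edgeR adjusted p = 0.332). Syt8 had 20 and 28 counts in the dark and 7 in each mouse under light, a log2 change of -2.02 ± 0.66 (edgeR adjusted p = 0.207), while acinar markers took 0.0552% and 0.0331% in the dark and 0.0449% and 0.00655% under light. The fit has 1 residual degree of freedom, and the light lasted 40 min against 4 h at 11G, so the sizes of the glucose and light changes are not compared.

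Across the 7 comparisons, 13 members passed at least once, all of them synaptotagmins, syntaxins, VAMPs or Unc13a. The wild-type comparisons share libraries. The share of all genes that passed at least once was not computed, so neither this count nor its split by family has a background beside it. The other 7 families were synaptotagmin-like, syntaxin-binding, SNAP, Rims, complexin, Doc2 and the NSF group, with 28 members tested in wild type. They had 0 calls in the main edgeR fits, which used the filter on low counts and the mouse block. Without that filter some of these members passed, among them Doc2g and Stxbp5l for FK506 against 2G. The SNAP genes moved little, with log2 changes of -0.14 to 0.12 for the 5 at 11G against 2G, -0.27 to 0.22 with diazoxide against 11G and -0.28 to 0.03 with FK506 against 11G. The 4 genes of the NSF group ranged from -0.58 to 0.15 at 11G against 2G and from -0.19 to 0.31 with diazoxide against 11G. Not tested in wild type were 7 members with too few counts: Syt10, Cplx3, Cplx4, Rims1, Unc13c, Doc2a and Stxbp3b. Rims4 was tested on few counts, 6 and 16 at 2G and 1 and 3 at 11G, and did not pass in any of the 7 comparisons.

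A few members differed widely between mice. Syt10, an activity-induced synaptotagmin of neurons, had 0 counts in all 8 wild-type libraries and in both libraries of ChR2 mouse 2, but 118 and 176 counts (4.21 and 4.55 FPKM) in the dark and light libraries of ChR2 mouse 1. Stxbp5l stood at 4.33 and 6.58 FPKM in ChR2 mouse 1 and at 0.803 and 0.546 FPKM in ChR2 mouse 2. In wild type it stood at 3.98 FPKM in the 2G library of mouse 1 and at 0.50 to 1.49 FPKM in the other 7. Within wild-type mouse 1, Stxbp5l was thus highest at 2G, with 1.49, 1.05 and 0.985 FPKM at 11G, with diazoxide and with FK506, and it did not pass in the fit of all 8 libraries, though without the filter on low counts it passed for FK506 against 2G. These values rest on 1 mouse number each, and whether a number stands for a single animal or a pool is not stated. Sytl3 stood at 4.52, 4.00, 2.25 and 2.53 FPKM in the ChR2 libraries and at 0.567 to 0.928 FPKM in wild type, a contrast that mixes genotype with unstated glucose and was not tested.

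Other genes of exocytosis gave a wider view: Rab effectors, active-zone and calcium channel genes, the exocyst, further SNAREs and vesicle membrane proteins, 89 genes of which 88 were tested in wild type. At 11G against 2G, 2 were higher and 1 lower (3.41%, beside 4.84% of all genes). Cacna1c, which encodes an L-type calcium channel pore subunit, stood at 13.3 and 8.11 FPKM at 2G and at 17.7 and 16.6 FPKM at 11G, and rose by 0.76 ± 0.17 on the log2 scale. Scamp5, a secretory carrier membrane protein, stood at 58.8 and 67.7 FPKM at 2G and at 113 and 104 FPKM at 11G, and rose by 0.83 ± 0.20. Mlph, which links Rab27 to myosin, fell from 4.12 and 3.23 FPKM to 1.63 and 2.07 FPKM. These calls rest on single libraries: without either 11G library 0 of the genes passed, without the 2G library of mouse 2 only Pclo, and without that of mouse 1 there were 10, of these 3 only Cacna1c.

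With diazoxide against 11G, 1 of the 88 passed. It was Bnip1, which encodes a SNARE of the endoplasmic reticulum that works with Stx18. Bnip1 stood at 5.55 and 7.47 FPKM at 2G, at 6.34 and 8.57 at 11G and at 13.2 and 12.4 with diazoxide, so both diazoxide libraries were the highest in wild type. It was higher by 0.78 ± 0.17 against 11G and by 1.02 ± 0.17 against 2G, where Cacna1c also passed (1.09 ± 0.17). Against 11G, Bnip1 did not pass without either 11G library or without the 11G+D library of mouse 1, and 4 genes passed without that of mouse 2. Against 2G, leaving out 1 library gave 2 to 6 genes, Bnip1 each time, with Cacna1c absent without the 2G library of mouse 2. In the main edgeR fits, none of the other exocytosis genes passed with FK506 against 11G, 2G or diazoxide, or with light. In that order, 17, 12, 14 and 6 had an unadjusted p under 0.05. DESeq2 called 1, 1, 0 and 0 there, and edgeR without the filter on low counts called 1, 2, 1 and 0.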

How the data were processed

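Total RNA from islets was sequenced in 12 libraries, 2 mice in each of 6 groups. The authors deposited 8 tables, each with 2 libraries of 1 mouse and, per the file headers, raw read counts, FPKM values and the authors' normalized counts. Deposited FPKM equalled the count over gene length and column total, and within a column the deposited normalized counts (a signal) were a constant multiple of the counts; its headings matched column codes to conditions. The 11G library of each mouse stood in 3 tables with 0 differing genes, and a gene that a table does not list was set to 0. The sources used here do not give the aligner, counting tool, use of strand or genome build. All 75 member identifiers overlapped their gene in GENCODE M21, 50 with both ends equal.

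Counts were tested with edgeR 4.0.16 in R 4.3.3 (quasi-likelihood, TMM, filterByExpr with a minimum count of 10 and a minimum total count of 15, mouse number as block). The 8 wild-type libraries formed 1 fit (16087 genes, 3 residual degrees of freedom); the 4 libraries from ChR2 islets formed another (15171 genes, 1 residual degree of freedom). Two-sided p-values were adjusted by Benjamini-Hochberg over every gene tested, with a threshold of 0.05. Standard errors are the log2 change over the square root of F. The block follows from the shared mouse numbers in the titles and the pairing of each table within 1 mouse, and same-numbered libraries deviated together (correlations 0.145 to 0.456 in wild type, 0.503 in ChR2). The sources do not say whether a library held 1 culture or several. The depth, 15196061 to 22892255 counts, limits genes with few counts most. Alternatives were DESeq2 1.42.0, a fit without the block, RLE size factors, a filter on at least 10 CPM in 2 libraries, no filter, a joint fit of all 12 libraries, and each library left out in turn. Where a wild-type library was left out, the fit held the remaining wild-type libraries. Where a ChR2 library was left out, the fit held the remaining ChR2 libraries and all 8 wild-type libraries, so the spread was estimated over both genotypes.

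Members and lists were chosen with earlier results of these data known. Named in the text are members past the threshold in at least 1 comparison, a fixed set of core exocytosis genes, and the highest and lowest gene of each family. Stx7, Syt1, Vamp3, Vamp8, Rims4, Sytl3 and some other members outside this rule were named after their values were seen. Values of some members are not reported here.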

Additional observations from a re-analysis of the deposited data

How the results depend on the processing

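Over the alternatives run, the 24 changes of members past the threshold kept their direction in all 237 refits, and 88 of these refits took them past the threshold no longer. The refits reuse nearly all of the libraries that picked these changes, so a kept direction is no independent support. Without the replicate block all 24 were lost and 0 members passed in each of the 7 comparisons, with 15, 12, 10, 9 and 3 at an unadjusted p under 0.05 for 11G against 2G, diazoxide against 11G, diazoxide against 2G, FK506 against 2G and FK506 against diazoxide. Leaving out 1 library gave 0 to 9 members for 11G against 2G, 1 to 7 for diazoxide against 11G, 2 to 8 for diazoxide against 2G, 0 to 3 for FK506 against 2G, 0 to 2 for FK506 against diazoxide, and 0 throughout for FK506 against 11G and for light. With no filter on low counts, the numbers were 13 for 11G against 2G, 8 for diazoxide against 2G, 7 for FK506 against 2G, 3 for FK506 against diazoxide and 2 for FK506 against 11G. DESeq2 gave 3 members for FK506 against 11G and 4 for FK506 against diazoxide, and RLE size factors gave 2 for FK506 against 2G. The median log2 change of the members tested was -0.059 instead of -0.01 for diazoxide against 11G, and 0.11 instead of 0.07 for FK506 against diazoxide, under a filter at 10 CPM in 2 libraries, where fewer genes are tested. The cause of the other differences was not tested. With 2 mice a group and 3 residual degrees of freedom in wild type, 1 in ChR2, small changes and genes of few counts could not be resolved.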
